A study of Mus musculus with 16 samples.

Results

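The gamma-chain cytokine receptors, the STAT5 factors and their inhibitor were examined as 10 genes out of 55536 annotated genes. They were picked as a known pathway, with earlier results of these data known, and found by GENCODE M21 symbol: the receptor chains Il2ra, Il2rb, Il2rg, Il15ra, Il7r, Il21r and Il4ra, the transcription factors Stat5a and Stat5b, and the inhibitor Socs1. All 10 passed the filter on low counts. The libraries came from CD8+ T cells of OT-I transgenic C57BL/6J mice, whose T cell receptor recognises an ovalbumin peptide. The cells were electroporated with Cas9 and either a scrambled guide (Control gRNA, 8 libraries) or a guide against Tardbp (Tardbp gRNA, 8 libraries), and were then transferred into C57BL/6J recipients. The product of Tardbp is TDP-43, which binds RNA and acts in splicing and in 3' end choice. Every recipient in both groups was given the antigen SIINFEKL together with agonist antibodies against OX40 and 4-1BB, so neither group is free of costimulation. Transferred cells were recovered from spleen and lymph nodes at day 4 and sorted. The age of single animals is not given in the labels used here. Each group is a bulk pool of electroporated cells with 1 guide and not a clone, so unedited cells may be included. The Rag-deficient background named in the study's methods concerns the donors, while the recipients kept their own lymphocytes.

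Common gamma chain cytokines act through shared receptors. Il2rg encodes the common gamma chain, which pairs with a private chain for each cytokine: with Il2rb for interleukin 2 and interleukin 15, with Il7r for interleukin 7, with Il21r for interleukin 21 and with Il4ra for interleukin 4. Il2ra (CD25) and Il15ra raise the affinity of the receptor for interleukin 2 and interleukin 15. The chains bring together the kinases Jak1 and Jak3, which phosphorylate STAT factors, and STAT5 is the main one downstream of interleukins 2, 7 and 15. Socs1 is induced by this signal and inhibits the kinases. In CD8+ T cells, Il2ra rises on activation, Il7r marks resting and memory precursor cells, and Il2rb carries the interleukin 15 signal that memory cells depend on.

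Expression was read as library-scaled abundance (CPM, with TMM scaling), from 56016533 to 94801105 estimated counts per library. The targeted gene Tardbp ran from 172 to 207 CPM in Control gRNA and from 110.4 to 147 CPM in Tardbp gRNA, and fell by 0.51 on the log2 scale (SE 0.056, adjusted p = 8.07e-07, edgeR quasi-likelihood test with Benjamini-Hochberg adjustment). This is a level of RNA and not of protein. By immunoblot, the study reports that cells given the Tardbp guide did not make the protein. The sorted cells were CD8+ T cells by their transcripts: the summed level of 7 CD8 T cell genes (Cd8a, Cd8b1, Cd3d, Cd3e, Cd3g, Trac and Cd2) was 3663 to 4565 CPM in Control gRNA and 5541 to 7109 CPM in Tardbp gRNA. Of these, 7 of 7 were called higher at an adjusted p under 0.05, beside 23.5% of all genes tested. Cd4 did not exceed 0.601 CPM in a Control gRNA library or 0.555 CPM in a Tardbp gRNA library, Foxp3 did not exceed 0.498 CPM, and among B cell genes Pax5 was at 0 in 15 of 16 libraries while Ighm averaged 404 CPM in Control gRNA and 640 CPM in Tardbp gRNA. The RNA concentration before library preparation, deposited with no unit, was 34.9 to 197.1 across Control gRNA libraries and 10.1 to 24 across Tardbp gRNA libraries, without overlap, so concentration and group cannot be told apart.

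Of the 10 genes, 9 passed the threshold of an adjusted p under 0.05, beside 46.7% of the 16650 genes tested. Of these, 5 were lower in Tardbp gRNA (5 of 10, beside 23.3% of all genes) and 4 were higher (4 of 10, beside 23.5%). Groups of 8 libraries did not overlap for 5 of the 10 genes (Il2ra, Il2rb, Il21r, Stat5a and Stat5b), beside 16.9% of all genes. The median log2 fold change was -0.22 over the 10 genes and 0.05 over all genes tested. Il2ra, Il2rb, Il7r and both STAT5 genes were lower in Tardbp gRNA, while the common gamma chain, Il15ra, Il21r and Socs1 were higher. These are bulk libraries, in which fewer cells that express a gene and less RNA per cell cannot be told apart.

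**Figure D1:**
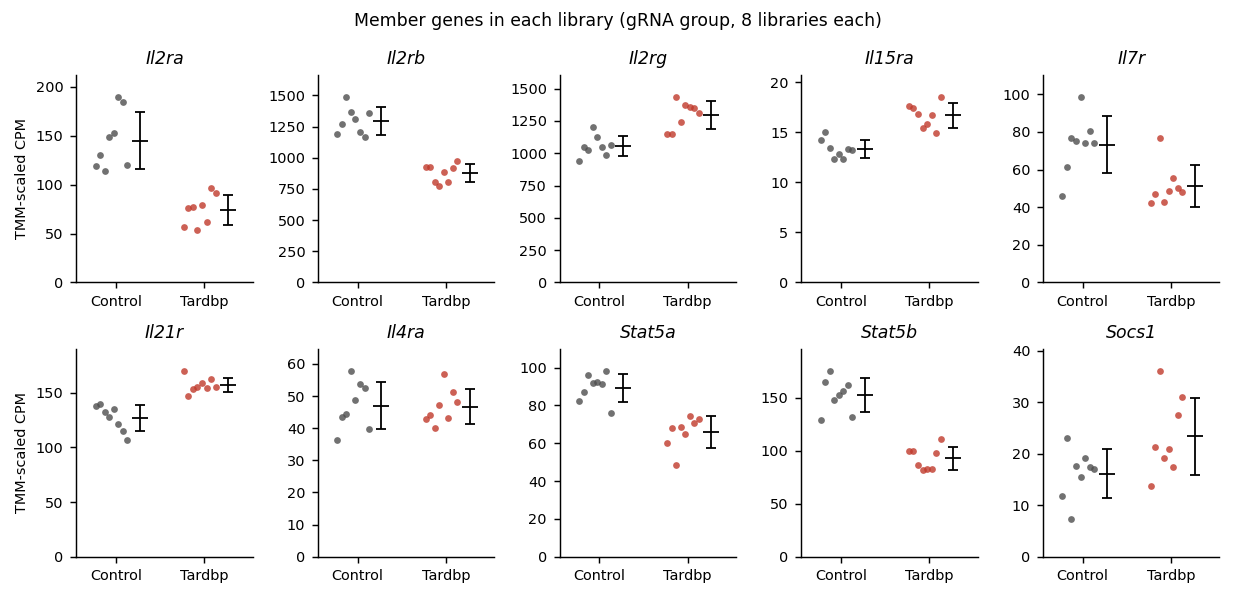
TMM-scaled CPM of the 10 genes in each library, with 8 Control gRNA libraries in grey and 8 Tardbp gRNA libraries in red. The bar beside each group is the mean with its SD, and each panel starts at 0. The groups are apart for Il2ra, Il2rb, Il21r, Stat5a and Stat5b, and lie over each other for Il4ra.

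Il2ra, the alpha chain that gives the interleukin 2 receptor its high affinity, changed most among the 10 genes. Its level in Control gRNA was 114 CPM at the lowest, 139.9 at the median and 189.8 at the highest. In Tardbp gRNA it was 53.6, 76.4 and 96.8 CPM. Every Tardbp gRNA library lay below every Control gRNA library. The mean went from 145 ± 29.6 to 74.1 ± 15.7 CPM (SD, n = 8), to 51.1% of Control gRNA, and the log2 fold change was -0.97 (SE 0.14, adjusted p = 1.2e-05, edgeR). Il2ra lies on chromosome 2 (GRCm38, 11642807 to 11693193, plus strand), and 98.9% of its counts in Control gRNA were given to the coding transcript Il2ra-201, which was lower as well (log2 fold change -1.02, SE 0.14, adjusted p = 1.17e-04, edgeR over transcripts).

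Il2rb, the beta chain shared by the interleukin 2 and interleukin 15 receptors, was the most abundant of the private chains. Control gRNA libraries held 1170.1 CPM at the lowest, 1289 at the median and 1489 at the highest, and Tardbp gRNA libraries 772, 905 and 973 CPM. The groups were separated by a gap wider than the SD of either. The mean went from 1294 ± 109 to 877 ± 72.4 CPM (SD, n = 8), and Il2rb fell by 0.56 on the log2 scale (SE 0.057, adjusted p = 3.97e-07, edgeR). Its coding transcript Il2rb-201 took 99.6% of its counts in Control gRNA and 99.7% in Tardbp gRNA.

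Il2rg, the common gamma chain itself, moved the other way. Control gRNA libraries ran from 943 CPM over a median of 1048 to 1204, and Tardbp gRNA libraries from 1147 over 1329 to 1436. Only 2 of the 8 Tardbp gRNA libraries fell within the range of Control gRNA. The mean rose from 1055 ± 79.7 to 1295 ± 107 CPM (SD, n = 8), a log2 fold change of 0.30 (SE 0.054, adjusted p = 2.08e-04, edgeR).

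Il15ra, the alpha chain that binds interleukin 15, was the least abundant receptor chain and rose by a similar amount. It ran from 12.4 over 13.3 to 15.01 CPM in Control gRNA and from 14.9 over 16.8 to 18.6 CPM in Tardbp gRNA. All 8 Tardbp gRNA libraries were above the Control gRNA median and 1 of them lay within the Control gRNA range. The log2 fold change was 0.32 (SE 0.061, adjusted p = 2.84e-04, edgeR). Il15ra is the neighbour of Il2ra on chromosome 2, 12.1 kb away on the same strand, and the 2 alpha chains changed in opposite directions.

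Il7r, the interleukin 7 receptor alpha chain, was lower in Tardbp gRNA, with overlap. Control gRNA libraries held 45.8, 74.7 and 98.7 CPM at the lowest, the median and the highest. Tardbp gRNA libraries held 42.4, 48.4 and 77.0 CPM. The other 7 Tardbp gRNA libraries lay between 42.4 and 55.7 CPM, and library 3, at 77.0 CPM, stood apart from them. The mean went from 73.3 ± 15.2 to 51.5 ± 11.1 CPM (SD, n = 8), a log2 fold change of -0.51 (SE 0.14, adjusted p = 0.0046, edgeR). Library 3 also had the lowest Tardbp level of its group, at 110.4 CPM.

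Il21r, the interleukin 21 receptor chain, was higher in every Tardbp gRNA library than in any Control gRNA library. The lowest, median and highest levels were 107, 130.4 and 139.8 CPM in Control gRNA and 147, 155 and 169.9 CPM in Tardbp gRNA. The log2 fold change was 0.31 (SE 0.053, adjusted p = 1.16e-04, edgeR). Il4ra, the interleukin 4 receptor chain that lies 23.95 kb from Il21r on chromosome 7, did not pass the test. Its libraries ran from 36.3 over 46.5 to 57.8 CPM in Control gRNA and from 40.2 over 45.6 to 57.0 CPM in Tardbp gRNA. All 8 Tardbp gRNA libraries were within the Control gRNA range, and the log2 fold change of -0.01 had a 95% interval of -0.19 to 0.17 (adjusted p = 0.944, edgeR).

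Stat5a and Stat5b, which encode the closely related STAT5 factors and lie 8.63 kb apart on chromosome 11, were both lower. Stat5b ran from 129 over 154 to 175 CPM in Control gRNA and from 81.9 over 92.1 to 111 CPM in Tardbp gRNA. Stat5a ran from 75.9 over 91.7 to 98.2 CPM in Control gRNA and from 48.5 over 68.2 to 74.5 CPM in Tardbp gRNA. Neither gene's groups overlapped. Stat5b fell by 0.72 on the log2 scale (SE 0.075, adjusted p = 5.63e-07) and Stat5a fell by 0.44 (SE 0.077, adjusted p = 1.30e-04, edgeR for both). The 2 genes are similar in coding sequence, so that reads may be shared between them and their separate levels are uncertain to that extent.

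Socs1, the inhibitor of the receptor kinases, had the largest SE of the log2 fold change among the 10 genes. Control gRNA libraries ran from 7.41 over 17.2 to 23.1 CPM and Tardbp gRNA libraries from 13.6 over 21.1 to 36.0 CPM. Of the 8 Tardbp gRNA libraries, 5 lay within the Control gRNA range. The log2 fold change of 0.53 (SE 0.21, adjusted p = 0.0433, edgeR) passed the threshold narrowly. It did not pass when any one of 12 of the 16 libraries was left out, with adjusted p from 0.0508 without Tardbp gRNA library 2 to 0.115 without Tardbp gRNA library 8; the 4 whose loss left the call were Control gRNA 2 and 6 and Tardbp gRNA 1 and 6.

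The 10 genes were also fitted in subsets of the libraries and with RNA concentration as a covariate. In library numbers 4 to 8 alone, 9 of the 10 genes were called, and in numbers 1 to 3 alone (3 against 3) 4 were: Il2ra, Il2rb, Stat5a and Stat5b. The share of all genes called in each of these fits is not reported here, so these counts have no background beside them. Il7r had a log2 fold change of -0.72 in numbers 4 to 8 (adjusted p = 5.50e-05, edgeR) and of -0.18 in numbers 1 to 3 (adjusted p = 0.703, edgeR), a difference that was not itself tested. With log2 RNA concentration as a covariate, Il2rb (-0.80, adjusted p = 3.30e-04), Stat5b (-0.75, adjusted p = 0.00452) and Il21r (0.45, adjusted p = 0.0107) were still called and the other 6 were not. Il2ra was at -0.65 in that fit (adjusted p = 0.125, edgeR). Concentration did not overlap between the groups, so this fit cannot separate it from group, whether a call was kept or lost.

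**Figure D2:**
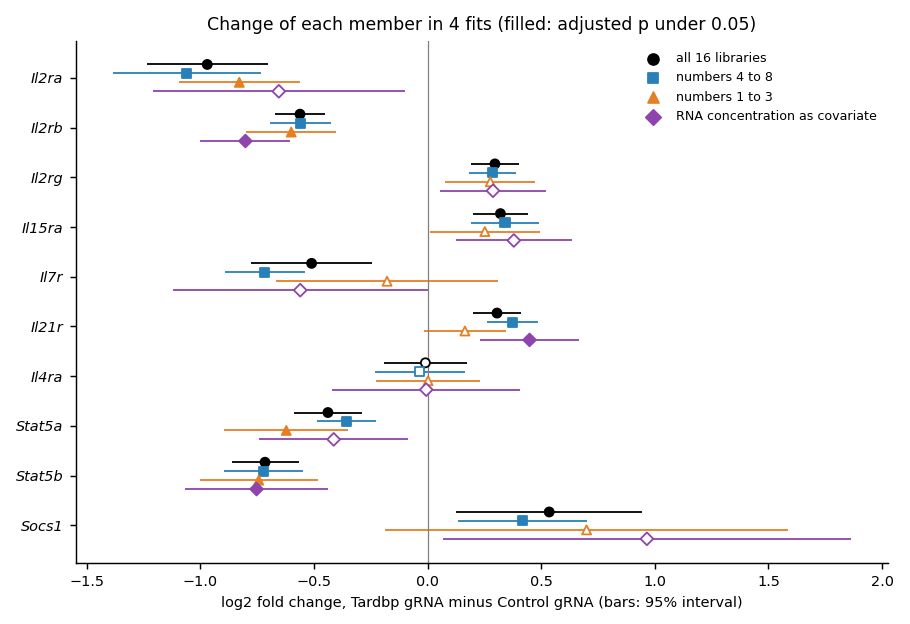
Log2 fold change of each gene, Tardbp gRNA minus Control gRNA, in 4 edgeR fits, with bars for the 95% interval and filled marks for an adjusted p under 0.05. Il2rb and Stat5b are filled in all 4 fits, and Il7r lies nearer 0 in numbers 1 to 3 than in numbers 4 to 8. RNA concentration does not overlap between the groups, so the fit with it as a covariate cannot separate it from group.

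The deposited letter M or F of each library did not change these contrasts detectably. The letter was not balanced between the groups. In numbers 1 to 3, every Tardbp gRNA library was M, while Control gRNA library 1 was M and libraries 2 and 3 were F. Letter and group are thus partly confounded in that subset. The interaction of group with that letter was called for 0 of the 10 genes and 0% of all 16650 genes (edgeR). At an unadjusted p under 0.05 the counts were 0 of 10 and 662 of 16650, and the lowest unadjusted p among the 10 genes was 0.127.

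Levels were compared between genes per kilobase of exon. In Control gRNA, Il2rg stood at 442 ± 33.4 CPM per kb and Il2rb at 302 ± 25.5 (SD, n = 8), ahead of Il21r at 38.3 ± 3.56. Stat5b (27.5), Il2ra (25.4), Il7r (15.7) and Stat5a (12.5 CPM per kb) followed, each overlapping the next. Il4ra (7.84), Socs1 (5.55) and Il15ra (3.01 CPM per kb) were lowest, and again each overlapped the next. In Tardbp gRNA the first 7 places were the same, with Il2rg at 543 ± 44.9 and Il2rb at 205 ± 16.9 CPM per kb, and Socs1 (8.04) and Il4ra (7.79), whose libraries overlapped, changed places.

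Ratios within a library do not depend on the scaling of that library. For 6 ratios, computed per kilobase and picked with the changes of their genes known, values are given as a description with no test. The size of a ratio depends on the exon union lengths used, while its relative change between groups does not. Il2rb over Il2rg was 0.685 ± 0.0579 in Control gRNA and 0.380 ± 0.0522 in Tardbp gRNA (SD, n = 8), with no overlap. Il2ra over Il2rg was 0.0577 ± 0.0123 and 0.0239 ± 0.00463, also with no overlap. Il15ra over Il2ra, 2 genes called in opposite directions, was 0.123 ± 0.0285 and 0.301 ± 0.0668, with no overlap.

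The other 3 ratios overlapped between groups. Il2ra over Il2rb was 0.0854 ± 0.0224 in Control gRNA and 0.0632 ± 0.0109 in Tardbp gRNA (SD, n = 8). Stat5b over Stat5a was 2.19 ± 0.139 and 1.83 ± 0.298, and Il21r over Il7r was 2.56 ± 0.786 and 4.43 ± 0.832. The exon union of Stat5a, 7133 bases, is longer than Stat5a-203, at 3605. That of Stat5b, 5539 bases, is near Stat5b-201, at 5062. The size of Stat5b over Stat5a is thus raised by the lengths used.

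**Figure D3:**
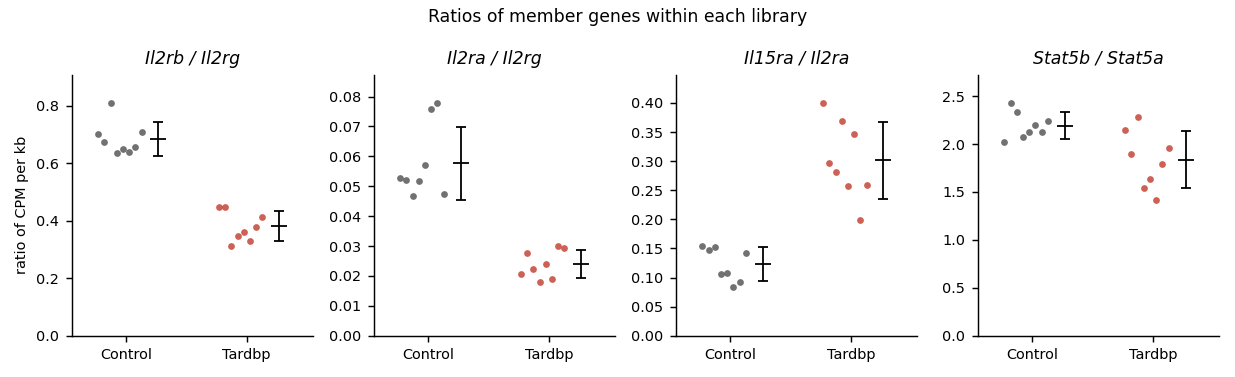
Ratio of CPM per kb of 2 genes within each library, for 8 Control gRNA libraries in grey and 8 Tardbp gRNA libraries in red, with mean and SD and axes from 0. Il2rb over Il2rg and Il2ra over Il2rg are lower, and Il15ra over Il2ra is higher, in every Tardbp gRNA library than in any Control gRNA library.

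Transcripts of the common gamma chain gene were read next. One of them, Il2rg-203, lacks the exon that anchors the receptor in the membrane, and it was picked after its values were seen. Il2rg lies on the minus strand of chromosome X (GRCm38, 101264378 to 101268255), and its main transcript Il2rg-201 has 8 exons. Exon 6 (chrX:101265630-101265726, 97 bases) holds the whole of the most hydrophobic window of 19 residues beyond the signal peptide region, which is the membrane span. Il2rg-203 joins exon 5 directly to exon 7. The loss of 97 bases shifts the reading frame, and such a transcript is known to encode a secreted, soluble gamma chain. The sequences around this choice are shown 5' to 3' on the transcript strand, from GENCODE M21.
With exon 6 in capitals between 20 bases of exon 5 and 20 bases of exon 7: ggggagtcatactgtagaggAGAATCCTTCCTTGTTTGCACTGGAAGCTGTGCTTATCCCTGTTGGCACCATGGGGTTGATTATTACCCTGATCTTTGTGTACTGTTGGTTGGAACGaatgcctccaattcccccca
Without exon 6, with exon 7 in capitals: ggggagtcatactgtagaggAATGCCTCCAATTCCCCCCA

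The skipped form held a small part of the counts of Il2rg in both groups. Il2rg-203 held 0.987 to 2.52% of the gene's CPM in Control gRNA (mean 1.596% ± 0.450, SD, n = 8) and 1.64 to 2.78% in Tardbp gRNA (mean 2.103% ± 0.374). The ranges overlapped, and the difference of 0.51 percentage points in share did not pass the test (adjusted p = 0.226, limma over transcript shares). In level, Il2rg-203 rose with its gene, from 16.9 ± 4.71 to 27.5 ± 6.45 CPM (SD, n = 8), a log2 fold change of 0.66 (SE 0.18, adjusted p = 0.0206, edgeR over transcripts), and this call was lost in library numbers 4 to 8 alone (adjusted p = 0.0721, edgeR). The authors' splicing measure for exon 6, the percent of transcripts that include it (Psi), was 95.1% in Control gRNA and 92.1% in Tardbp gRNA. Psi was deposited as 1 value per group, so it has no replicate error and no test here. Counts also depend on length, and Il2rg-203 is annotated at 597 bases against 1670 for Il2rg-201. A share of counts is therefore not a share of molecules, and it cannot be set against Psi directly.

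The corresponding exon was located in each of the other 6 receptor chains by the same search for the most hydrophobic window. It was exon 7 of Il2ra, exon 8 of Il2rb, exon 6 of Il7r, exon 6 of Il15ra, exon 7 of Il21r and exon 8 of Il4ra, at 67 to 121 bases. In none of the 7 genes was its length a multiple of 3, so skipping it shifts the frame in each. Psi of this exon in Control gRNA and Tardbp gRNA was 98.6 and 98.9% for Il2ra, 99.98 and 99.97% for Il2rb, and 99.2 and 99.3% for Il7r. It was 96.0 and 94.0% for Il15ra, 88.8 and 90.6% for Il21r, and 99.3 and 98.6% for Il4ra. The change in Il2rg, of -3.06 points, was the widest of the 7, and none reached 10 points.

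**Figure D4:**
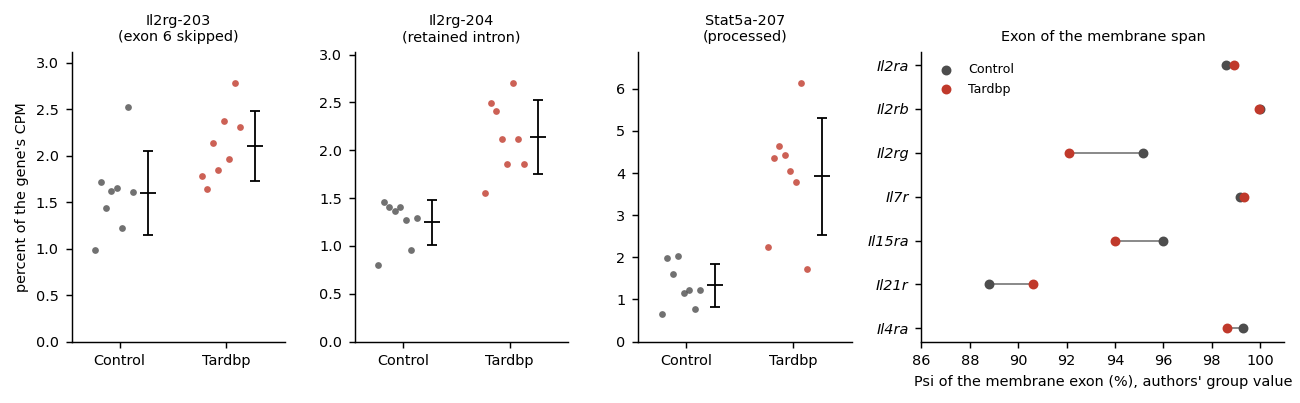
The left 3 panels give the percent of a gene's CPM held by Il2rg-203, Il2rg-204 and Stat5a-207 in each library, with mean and SD. The right panel gives the authors' Psi, 1 value per group with no error, of the exon that codes the membrane span in 7 receptors, on an axis from 86%. Only the panel of Il2rg-204 shows groups with no overlap, and Psi of Il2rg is 95.1% in Control gRNA and 92.1% in Tardbp gRNA.

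Il2rg-204, a noncoding transcript that retains introns between exons 2 and 4, was the one transcript of the 3 plotted whose share did not overlap between groups. It held 0.796 to 1.46% of the gene across Control gRNA libraries and 1.55 to 2.70% across Tardbp gRNA libraries, with no overlap. The mean share went from 1.25% ± 0.239 to 2.14% ± 0.382 (SD, n = 8), a difference of 0.89 points (adjusted p = 0.00704, limma), and this call was lost in library numbers 4 to 8 alone (adjusted p = 0.0771, limma). The share of the main transcript Il2rg-201 went the other way, from 97.1% ± 0.516 to 95.7% ± 0.487, a difference of -1.41 points (adjusted p = 0.00543, limma). The level of Il2rg-204 rose from 13.2 ± 3.16 to 27.8 ± 5.95 CPM (log2 fold change 1.03, SE 0.16, adjusted p = 3.15e-04, edgeR over transcripts). Unspliced RNA and RNA with a retained intron cannot be told apart in these counts.

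Stat5a has a noncoding transcript that runs on past a coding exon, Stat5a-207. It held 0.655 to 2.04% of Stat5a across Control gRNA libraries and 1.72 to 6.14% across Tardbp gRNA libraries, with overlap. The level rose from 1.20 ± 0.476 to 2.58 ± 0.992 CPM (SD, n = 8), a log2 fold change of 1.07 (SE 0.29, adjusted p = 0.0171, edgeR over transcripts), while the whole gene fell. Its share differed by 2.59 points (adjusted p = 0.01, limma). In library numbers 4 to 8 alone neither passed, at an adjusted p of 0.0536 for the level (edgeR) and 0.132 for the share (limma).

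Of 51 transcripts of the 10 genes, 35 were tested and 7 of these 35 were called, beside 16.6% of the 40897 transcripts tested. Of the 35, 4 were called higher (beside 8.5% of all tested) and 3 lower (beside 8.14%). Lower were Il2ra-201, Il2rb-201 and Stat5b-201, and higher were Il2rg-201, Il2rg-203, Il2rg-204 and Stat5a-207. In shares of a gene, 0 passed when a difference of more than 0.1 was required beside the adjusted p, against 0.635% of 32777 transcripts. Without that requirement 5 of the 35 passed at an adjusted p under 0.05 (against 4.42%), and 6 had an unadjusted p under 0.05 (limma). Il21r-202 held 21.1% ± 3.95 of its gene's counts in Control gRNA and 22.1% ± 5.71 in Tardbp gRNA (adjusted p = 0.896, limma), and Il21r-201 held 76.4% ± 4.05 and 75.5% ± 5.79.

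Some divisions between transcripts were unstable among libraries of one group. Il7r-204 took 0 to 86.4% of Il7r across Control gRNA libraries and 0 to 84.2% across Tardbp gRNA libraries, with Il7r-201, of similar length, taking most of the rest. Il4ra-205 took 0.235 to 66.6% and 0.142 to 70.3% of Il4ra, with Il4ra-201 at 55.2% and 54.9% on average. In Tardbp gRNA library 7, Stat5a-203 was at 0% and Stat5a-201 at 93.6%, where the other 7 libraries had Stat5a-203 at 72.9 to 80.0%. The 2 transcripts of Socs1, of 2785 and 2908 bases, held 60.03% and 39.97% of it on average in both groups, with an SD of 16.04 points among Control gRNA libraries and 23.4 among Tardbp gRNA libraries (n = 8). Il15ra was divided among 7 transcripts with at least 5% of its counts in either group: Il15ra-201 held 42.5% ± 19.4 in Control gRNA and 41.6% ± 18.2 in Tardbp gRNA, Il15ra-208 and Il15ra-210 held 10.9 to 15.3% on average, and Il15ra-213, Il15ra-214, Il15ra-217 and Il15ra-218 held 2.83 to 6.93%. Gene levels, which sum these transcripts, do not rest on these divisions.

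Splice nodes, the segments between splice sites for which Psi is given, numbered 113 in 9 of the genes. A difference of over 0.1 was seen at 5 nodes, all in Il15ra, beside 4.7% of all 125520 nodes. Of these, 3 were alternative starts and 2 alternative ends of that gene. The start at chr2:11705349-11705368 was at 13.1% in Control gRNA and 36.7% in Tardbp gRNA, the start at chr2:11705443-11705578 at 35.5 and 16.7%, and the start at chr2:11705777-11705809 at 19.5 and 7.76%. At the other end, the node at chr2:11733150-11733249 was at 43.7 and 65.6% and the one at chr2:11733402-11733962 at 38.5 and 16.9%. Il15ra was the gene with the lowest level per kilobase of annotated exon among the 10, the reads behind each Psi are not given per library, and these are values of 1 pool per group.

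Ligands of these receptors were scarcely transcribed by the sorted cells. Of 8 ligand genes, 4 passed the filter. Il21 ran from 1.17 over 2.23 to 3.68 CPM in Control gRNA and from 0.972 over 1.44 to 2.14 CPM in Tardbp gRNA (log2 fold change -0.64, adjusted p = 0.0347, edgeR). Il15 ran from 0.341 over 0.477 to 1.07 CPM in Control gRNA and from 0.555 over 1.07 to 1.57 CPM in Tardbp gRNA (log2 fold change 0.80, adjusted p = 0.0265, edgeR). Both sets of libraries overlapped, and both calls were lost when some single libraries were left out: 6 of 16 for Il15 (Control gRNA 1, 3, 4 and 6 and Tardbp gRNA 6 and 8, adjusted p up to 0.0713) and 5 of 16 for Il21 (Control gRNA 4, 6 and 7 and Tardbp gRNA 1 and 8, adjusted p up to 0.0824).

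Il2, the growth factor of activated T cells, was at 1.36 ± 0.225 and 1.61 ± 0.254 CPM (SD, n = 8; adjusted p = 0.149, edgeR), and Il7, which comes from stromal cells, was at 0.122 ± 0.119 and 0.159 ± 0.126 CPM. Il9 and Il13 had a count of 0 in every library, which by a floor of 3 counts allows up to 0.0316 to 0.0536 CPM (counting error only), Il4 averaged 0.0483 CPM in Tardbp gRNA and 0 in Control gRNA, and Tslp averaged 0.00803 and 0 CPM.

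Of 56 other genes of the pathway, 51 were tested and 29 were called (56.9%, beside 46.7% of all genes). Of the 51, 17 were called higher (beside 23.5%) and 12 lower (beside 23.3%), with a median log2 fold change of 0.02. In this fit, 7 of the 51 were called with no overlap between groups (beside 16.9%). With library totals alone in place of TMM scaling, 26 were called, 19 higher and 7 lower. The share of all genes called with that scaling is not reported here. Among the receptor kinases, Jak3, the partner of the gamma chain, fell by 0.28 (SE 0.078, adjusted p = 0.00642) and Jak2, which serves other cytokine receptors, rose by 0.39 (SE 0.11, adjusted p = 0.00642), while Jak1 was at 0.02 (SE 0.062, adjusted p = 0.857, edgeR for all, log2 scale). Among other STAT factors, Stat6, which serves the interleukin 4 receptor, went from 274 ± 26.3 to 205 ± 9.57 CPM (log2 fold change -0.42, SE 0.053, adjusted p = 4.17e-06, edgeR) with no overlap.

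**Figure D5:**
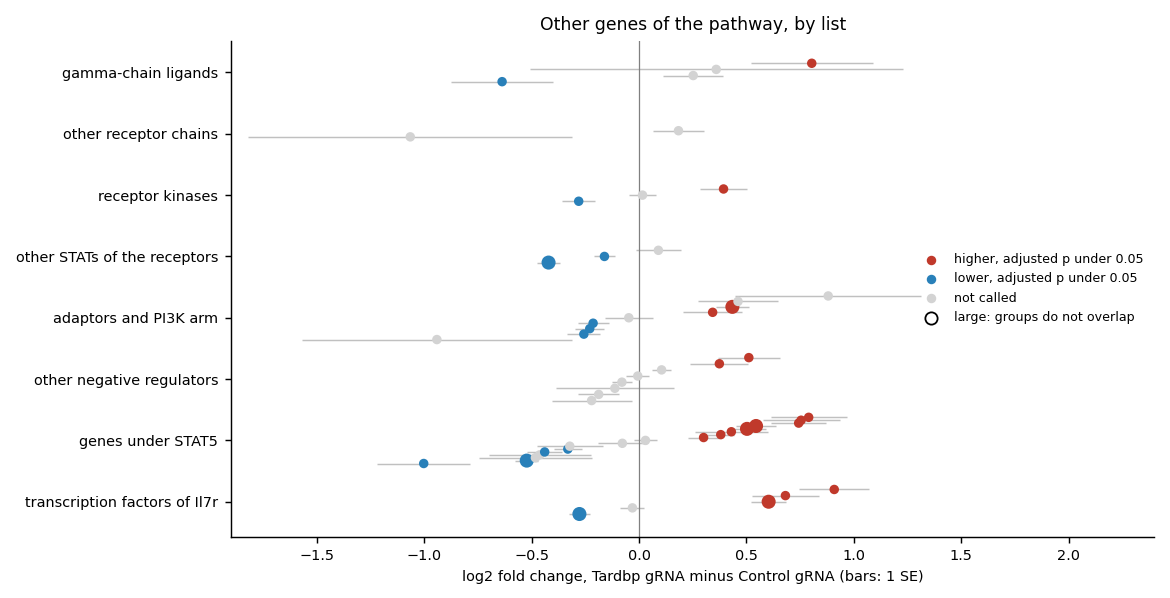
Log2 fold change with 1 SE of the 51 tested genes of the wider pathway, by list, with red for higher, blue for lower and grey for not called, and large marks where the 8 against 8 libraries do not overlap. Genes under STAT5 lie on both sides of 0, with 8 called higher and 4 called lower.

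Of the 17 genes under STAT5 in T cells, 12 were called (beside 46.7% of all genes), 8 higher (beside 23.5%) and 4 lower (beside 23.3%). The list does not give the direction in which STAT5 acts on each gene, so these counts do not measure STAT5 activity. Bcl2, an inhibitor of cell death, ran from 22.8 over 28.9 to 35.6 CPM in Control gRNA and from 36.4 over 39.9 to 47.7 CPM in Tardbp gRNA, with no overlap (log2 fold change 0.54, SE 0.094, adjusted p = 1.06e-04, edgeR). Pim1, a survival kinase, was also higher without overlap, from 9.32 ± 1.09 to 13.2 ± 1.66 CPM (log2 fold change 0.50, SE 0.089, adjusted p = 1.49e-04, edgeR). Ccnd3, a G1 cyclin, ran the other way, from 643 to 704 CPM in Control gRNA and from 374 to 527 CPM in Tardbp gRNA (log2 fold change -0.52, SE 0.053, adjusted p = 3.96e-07, edgeR).

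Of 8 other negative regulators, 2 were called (25%, beside 46.7% of all genes), both higher, and 6 were not. Cish, a STAT5-induced inhibitor, was among those not called, at 9.18 ± 4.02 and 8.504 ± 3.16 CPM (SD, n = 8; log2 fold change -0.11, SE 0.28, adjusted p = 0.768, edgeR). Of 9 adaptors and genes of the phosphoinositide 3-kinase arm, 5 were called (55.6%, beside 46.7%), 2 higher and 3 lower, and Pik3ca, a catalytic subunit, was higher without overlap (13.0 ± 1.502 to 17.6 ± 1.57 CPM, log2 fold change 0.43, SE 0.077, adjusted p = 1.38e-04, edgeR). The 2 other receptor chains tested were not called, Crlf2 at an adjusted p of 0.212 and Il9r at 0.264 (edgeR).

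The 5 transcription factors known to act on Il7r were listed beside it, and 4 were called (beside 46.7% of all genes), 3 higher and 1 lower. Foxp1, which restrains Il7r, ran from 47.0 over 56.1 to 70.5 CPM in Control gRNA and from 76.2 over 86.4 to 98.8 CPM in Tardbp gRNA, with no overlap (log2 fold change 0.60, SE 0.081, adjusted p = 8.16e-06, edgeR). Gabpa, which activates Il7r, was lower without overlap, from 78.4 ± 2.53 to 64.7 ± 5.13 CPM (log2 fold change -0.28, SE 0.049, adjusted p = 1.46e-04, edgeR). Foxo1, another activator of Il7r, was higher (log2 fold change 0.68, SE 0.16, adjusted p = 0.00156, edgeR), as was Gfi1, a repressor of Il7r (0.91, SE 0.16, adjusted p = 1.75e-04, edgeR). Ets1 was not called (adjusted p = 0.685, edgeR).

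Promoters were read for the STAT5 core motif TTCNNNGAA, which is the same on both strands, from 250 bases before to 50 bases after each RefSeq start (GRCm38.p6). Of the 10 genes, 9 had an entry, and the motif was found in 1, Il7r, beside 8.3% of all 32851 promoters. It begins 142 bases before the Il7r start and is shown in capitals on the gene's strand.
Il7r promoter stretch: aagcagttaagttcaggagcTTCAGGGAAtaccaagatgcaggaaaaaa
A match is a description of these letters, and its absence from the other windows says nothing about binding elsewhere.

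Some transcripts of other cell types were higher in Tardbp gRNA, where 23.5% of all genes tested were called higher. The 6 red cell precursor genes summed to 0.442 to 17.4 CPM in Control gRNA and 9.02 to 181 CPM in Tardbp gRNA, with 4 of 4 tested called higher. The 6 myeloid genes summed to 15.1 to 36.9 and 19.7 to 81.0 CPM, with 2 of 5 tested called higher, and the 4 NK cell genes to 12.6 to 63.4 and 36.9 to 100.8 CPM, with 1 of 3 called higher. The NK cell gene called was Eomes, which made up most of that sum and which CD8+ T cells also express. Among the myeloid genes, Itgam had a lower mean in Tardbp gRNA without passing (log2 fold change -0.57, adjusted p = 0.0671, edgeR). A set of 5 B cell genes (Ighm, Cd79a, Cd79b, Ms4a1 and Pax5) summed to 374 to 460.4 and 541 to 707 CPM. Nearly all of that was Ighm, which rose (log2 fold change 0.67, adjusted p = 4.05e-08, edgeR), while Cd79b averaged 7.23 and 9.03 CPM and Cd79a 0.659 and 1.22 CPM. The 5 genes of CD4+ and regulatory T cells summed to 1.54 to 10.3 and 2.78 to 7.80 CPM, with none called. Their part in the changes of the receptor and STAT5 genes was not tested.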

How the data were processed

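RNA of 16 samples of sorted CD8+ T cells (8 Control gRNA, 8 Tardbp gRNA) was made into libraries with SMART-Seq v4 and Nextera XT. Per the submitters' processing notes, the authors used HISAT2 2.1.0, SAMtools 1.9 and StringTie 2.1.0 on mm10, and deposited estimated counts per gene and transcript with no normalization. These are whole numbers, with about as many counts as single reads, and no count stands for 1 independent molecule. The authors deposited Psi from Whippet as a fraction per splice node and group. The fold (difference) and probability columns of that file are the authors' own comparison and were not used, nor were 10 columns in each count table that match no sample here. Which Psi column belongs to which group was taken from the study's supplementary headers. Left out were lines with no gene name, 0.0836 to 0.132% of each library's counts.

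Genes and transcripts were compared with edgeR 4.0.16 under R 4.3.3 (quasi-likelihood, TMM, filterByExpr with minimum count 10, total 15 and proportion 0.7), two-sided, fitting all 16 libraries without covariates, with calls made below 0.05 after Benjamini-Hochberg adjustment over all features. Transcript shares were tested with limma 3.58.1. Fits were tested on simulated data. DESeq2 1.42.0, other scalings and filters, covariates, library subsets and omission of single libraries were alternatives. Membrane exons were found by mean hydropathy over 19 residues past residue 40 of the translated transcript.

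The 10 genes and all gene lists were chosen with earlier results of these data known. Named were the 10 genes, Tardbp, pathway genes called with no overlap, all ligands, transcripts with at least 5% of a gene's counts and nodes with a Psi difference over 0.1; Jak1, Jak2, Jak3, Cish, Crlf2, Il9r, Foxo1, Gfi1, Ets1, Il2rg-203, Il2rg-204, Stat5a-207 and the membrane exons were added after their values were seen. The study describes the cells as sorted from individual recipient mice, 8 per group, so p-values measure the spread between recipients. Whether recipients of a group shared an electroporated pool of donor cells is not given in the sources used here. The list of B cell genes is not reported in full here.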

Additional observations from a re-analysis of the deposited data

Results flagged for a closer look

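Of 22 sets of 8 libraries (10 genes and Tardbp, in 2 groups), 2 held a library far from the rest, where chance gives about 1 in 20 such sets. Il7r was at 77.0 CPM in Tardbp gRNA library 3, with the other 7 libraries at 42.4 to 55.7 CPM. In the same library Tardbp was at 110.4 CPM, with the other 7 at 129.8 to 147 CPM.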

How the results depend on the processing

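Leaving out each library in turn gave 8 to 9 called genes of the 10 (9 with none left out), 25 to 30 of the pathway genes (29 with none left out), 7 to 8 transcripts (7) and 0 shares throughout. Library numbers 1 to 3 alone gave 4 of the 10 and 3 pathway genes, and log2 RNA concentration as a covariate gave 3 and 12. The share of all genes called in each alternative is not reported here, so these counts have no background beside them. Libraries of the same number in both groups were correlated weakly in their deviations, from -0.0048 for number 8 to 0.16 for number 1. Whether the numbers mark pairs is thus not settled by these values. The fit with the number as a replicate block gave 8 of the 10, with Socs1 lost (adjusted p = 0.0864, edgeR), and 30 pathway genes. DESeq2 and its size factors gave 9 of the 10 each. Socs1 was also lost with no filter on low counts (adjusted p = 0.0723, edgeR). Without a required difference, 5 transcript shares were called in place of 0, and with a Psi difference over 0.05 or 0.2 there were 10 or 3 nodes in place of 5. The log2 fold change of Il4ra, -0.01, changed sign to 0.0018 in numbers 1 to 3, 0.0143 with the sex letter and 0.0594 with library totals alone, the one scaling chosen after seeing the data, and ran from -0.0834 to 0.0190 with single libraries left out. The cause of these changes was not tested. Each of the other 9 genes kept its direction in all 26 alternatives. Il2rb and Stat5b kept their calls in all 26, and Il2ra, Il21r and Stat5a in 25. Low levels limit the ligands, at under 4 CPM, and Socs1 and Il15ra, and Psi has no replicate error.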
